A study of Bos taurus with 4 samples.

Results

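CPT1A, ACADM, ACAA2 and DECR1, enzymes of fatty acid oxidation, and ANGPTL4, a secreted inhibitor of lipoprotein lipase, were followed through the fat beneath the skin of Chinese Qinchuan cattle. Each gene was taken as the UniGene cluster (transcript sequences grouped by gene, with 1 of them as its representative) whose header named it by symbol or full name. The 5 genes had 1 such cluster each, among 36373 clusters with reads, of which those with a symbol covered 4817 genes. The 4 libraries were ATFB, from fetuses labelled as 200 to 250 days old, and ATAB, ATAH and ATAS, from adult bulls, adult heifers and adult steers (castrated males) labelled as 18 to 24 months old. All animals were of the same breed, all tissue was subcutaneous fat, and each library was a pool of tissue from 5 animals, so that animals could not be told apart and each group had 1 library. No difference between libraries therefore had a replicate check, and a test on the reads of a pair of libraries compares those libraries, not age, sex or castration. The 3 adult groups differed in sex and castration, and the fetal pool was the only one of its stage.

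Fatty acids that enter a cell are joined to coenzyme A, and the long ones reach the mitochondrial matrix only as carnitine esters, made at the outer membrane by carnitine palmitoyltransferase 1. In the matrix they are shortened in repeated rounds of dehydrogenation, hydration, a second dehydrogenation and thiolysis, with auxiliary enzymes for double bonds. ANGPTL4 acts upstream of this supply: it inactivates lipoprotein lipase, which releases fatty acids from circulating lipoproteins, and it is a known target of fatty acid-sensing PPAR receptors, as are CPT1A and other oxidation genes. In white fat, oxidation runs beside a far larger storage of triglyceride.

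The sequences on which the reads were counted are shown because they differ in how much of a gene they stand for. CPT1A (Bt.106837) was represented by a partial coding sequence of 334 bases, of which bases 1 to 300 are printed, with the longest run that it shares exactly with the cluster of CPT1B, the muscle form, in capitals. The other 4 clusters held a complete coding part with a start codon, in capitals, and a stop codon, and their first 60 coding bases are printed.
CPT1A: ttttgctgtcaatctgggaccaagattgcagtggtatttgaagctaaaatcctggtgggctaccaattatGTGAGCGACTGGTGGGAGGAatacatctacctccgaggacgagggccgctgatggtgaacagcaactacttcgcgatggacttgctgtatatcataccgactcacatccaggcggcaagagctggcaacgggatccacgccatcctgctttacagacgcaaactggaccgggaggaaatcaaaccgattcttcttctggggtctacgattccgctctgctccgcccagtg
ACADM: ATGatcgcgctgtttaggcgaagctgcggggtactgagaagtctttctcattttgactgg
ACAA2: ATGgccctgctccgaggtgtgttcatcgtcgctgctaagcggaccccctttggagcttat
DECR1: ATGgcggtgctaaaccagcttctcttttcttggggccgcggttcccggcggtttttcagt
ANGPTL4: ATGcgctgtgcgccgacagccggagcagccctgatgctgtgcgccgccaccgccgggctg

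The longest run that CPT1A shared with CPT1B or with CPT1C, the neuronal form, was 20 bases, and no window of 50 bases of the CPT1A, DECR1 or ANGPTL4 sequence stood in any other sequence of the authors' file. In ACADM (Bt.61205, 2211 bases, coding part from base 66 to 1331), 48.6% of the windows of 50 bases also stood in another sequence, and in ACAA2 (Bt.48847, 1626 bases, coding part from base 57 to 1250) it was likewise 48.6%. Of the 4 other sequences that held these windows, 3 were not among the clusters with a count, and the remaining one, Bt.36431, had 1 read in ATFB and 2 to 4 in the adult libraries. The authors counted reads that matched once. Whether the 3 sequences without a count were among those the reads were matched to is not given in the sources used here, so it is not known whether reads of ACADM and ACAA2 went uncounted there, and their levels per length are uncertain in size. DECR1 (Bt.13390) had 1626 bases with a coding part from base 19 to 1008, and ANGPTL4 (Bt.4816) had 1970 bases with a coding part from base 193 to 1425. The share of G and C ranged from 36.7% in ACADM and 39.1% in DECR1 to 62.4% in ANGPTL4, with CPT1A at 52.7% and ACAA2 at 46.5%.

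Against ATFB, 4 of the 5 genes were higher in each of the 3 adult libraries and ACADM was not. A cluster was called different where the exact two-sided binomial test gave a false discovery rate (FDR, Benjamini-Hochberg over all clusters with a read in either library) of 0.001 or less and the log2 ratio of RPKM (reads scaled to the length of the sequence and to the counted reads of the library) was at least 1 in size. Of the 15 fetal to adult comparisons of the 5 genes, 12 were called, all higher in the adult library, and these comparisons share the fetal library. An edgeR exact test with an assumed coefficient of variation of 0.4, taken up at the end, called none of the 15. Over all clusters, 22.9% were called between ATFB and ATAB, 24.1% between ATFB and ATAH and 26.3% between ATFB and ATAS, and those called higher in the adult library were 9.61%, 14.0% and 15.6%. Between adult libraries, 5 of 15 comparisons of the 5 genes were called, against 5.58% of clusters for ATAB to ATAH, 8.88% for ATAB to ATAS and 3.08% for ATAH to ATAS. The 5 genes did not share 1 order among the adults: CPT1A was highest in ATAS, DECR1 in ATAB and ANGPTL4 in ATAH.

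**Figure D1:**
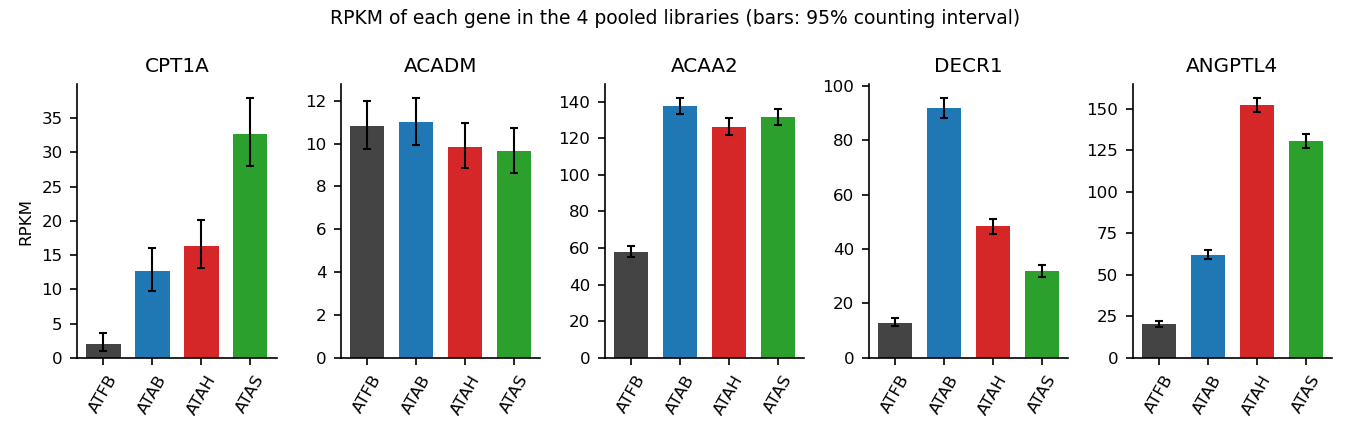
RPKM (vertical axis, from 0, own scale per gene) of the 5 genes in the ATFB, ATAB, ATAH and ATAS libraries, 1 pool of 5 animals each, with exact Poisson intervals of 95% that cover counting error only. CPT1A climbs from 1.96 in ATFB to 32.7 in ATAS, ACADM stays between 9.65 and 11.01, DECR1 peaks at 92.1 in ATAB and ANGPTL4 at 153 in ATAH.

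CPT1A, the liver-type enzyme of the rate-controlling entry step, had 10 reads in the fetal library, 68 in the bull, 85 in the heifer and 170 in the steer library. These were levels of 1.96, 12.6, 16.3 and 32.7 RPKM, with intervals of 0.940 to 3.60 in ATFB and 28.0 to 38.0 in ATAS. ATFB was the low library, the steer library the high one, and the bull and heifer libraries lay between them with overlapping intervals. The log2 ratio to ATFB was 2.69 in ATAB (95% Clopper-Pearson interval 1.72 to 3.81), 3.06 in ATAH (2.11 to 4.17) and 4.06 in ATAS (3.15 to 5.15). All 3 ratios share the 10 fetal reads. Among adults, ATAS was 2.60-fold above ATAB (log2 ratio 1.38, interval 0.96 to 1.80, exact binomial FDR 2.61e-11) and 2.004-fold above ATAH (1.003, 0.62 to 1.40, FDR 1.001e-06). The step from ATAB to ATAH, a log2 ratio of 0.37 with an interval from -0.10 to 0.85, was not called. The call between ATAH and ATAS sat at the ratio threshold and was lost with edgeR TMM factors, at 0.98, and with DESeq2 size factors, at 0.98. Reads covered 72.2% of this short fragment in ATFB and 95.8% to 96.4% in the adult libraries.

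ACADM, the acyl-CoA dehydrogenase that carries out the first dehydrogenation of rounds on medium chains, had 366 reads in the fetal library, 393 in the bull, 340 in the heifer and 332 in the steer library. Its levels were 10.8, 11.01, 9.86 and 9.65 RPKM, so that the highest library was 1.14-fold above the lowest. None of its 6 comparisons was called, and with library totals the intervals of all 6 log2 ratios held 0. Against ATFB the log2 ratios were 0.02 in ATAB (-0.19 to 0.23), -0.14 in ATAH (-0.35 to 0.08) and -0.17 in ATAS (-0.39 to 0.05), which bound a counting difference in either direction to under the threshold of 1. With ACTB as the scaling gene the ratio of ATAB to ATFB turned to -0.21, again not called. With TMM factors ACADM was below ATAB by -0.43 in ATAH and -0.48 in ATAS (exact binomial FDR 3.8e-04 and 4.6e-05), under the ratio threshold. Reads covered 79.2% of the sequence in the fetal library, 75.4% in the bull, 70.9% in the heifer and 56.0% in the steer library, while their number differed far less. Neither this drop in coverage nor the stretches shared with other sequences was tested as a source of the flat level.

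ACAA2, a mitochondrial 3-ketoacyl-CoA thiolase for the last step of a round, beside HADHB for long chains, had 1441 reads in the fetal library, 3618 in the bull, 3205 in the heifer and 3328 in the steer library. The levels were 58.0, 138, 126 and 132 RPKM. The fetal library was the low one and the 3 adult libraries lay within 1.09-fold of each other. The log2 ratio to ATFB was 1.25 in ATAB (1.16 to 1.34), 1.12 in ATAH (1.03 to 1.21) and 1.18 in ATAS (1.09 to 1.27). These values lie just above the ratio threshold, and the call for ATAH was lost with DESeq2 size factors (0.99) and when ACTB set the scale (0.85), as was that for ATAS with ACTB (0.93). Between ATAB and ATAH the log2 ratio was -0.12, with an interval from -0.19 to -0.06 and an exact binomial FDR of 0.00189, and was not called. The intervals of the other adult ratios, -0.07 for ATAB to ATAS and 0.06 for ATAH to ATAS, held 0. These hold for library totals. With TMM factors the log2 ratio to ATAB was -0.40 in ATAH and -0.36 in ATAS, not called.

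DECR1, the 2,4-dienoyl-CoA reductase that removes double bonds of unsaturated fatty acids in the mitochondrion, had 322 reads in the fetal library, 2417 in the bull, 1225 in the heifer and 809 in the steer library. Its levels of 13.0, 92.1, 48.3 and 32.0 RPKM put the fetal library lowest and the bull library highest, with no overlap of the 4 counting intervals. Against ATFB the log2 ratio was 2.83 in ATAB (2.66 to 3.0001), 1.90 in ATAH (1.72 to 2.08) and 1.30 in ATAS (1.11 to 1.49). The adult libraries ran opposite to CPT1A. ATAS was lower than ATAB by a log2 ratio of -1.53 (-1.64 to -1.41, exact binomial FDR 2.14e-169), which is 2.88-fold. ATAH lay 1.90-fold under ATAB, a log2 ratio of -0.93 (-1.03 to -0.83) that missed the ratio threshold with library totals and passed it with edgeR TMM factors (-1.21) and DESeq2 size factors (-1.21). From ATAH to ATAS the log2 ratio was -0.60 (-0.73 to -0.47), not called, with an interval clear of 0.

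ANGPTL4 had 611 reads in the fetal library, 1980 in the bull, 4684 in the heifer and 4007 in the steer library. Its levels were 20.3, 62.2, 153 and 131 RPKM, again lowest in the fetal library, and here the bull library was the low one among adults. The log2 ratio to ATFB was 1.62 in ATAB (1.48 to 1.75), 2.91 in ATAH (2.79 to 3.03) and 2.69 in ATAS (2.56 to 2.81). Against ATAB, the heifer library was higher by 1.29 (1.22 to 1.37), or 2.45-fold, and the steer library by 1.07 (0.99 to 1.15), or 2.10-fold. The second of these was lost with edgeR TMM factors (0.78) and DESeq2 size factors (0.77). From ATAH to ATAS the log2 ratio of -0.22 (-0.28 to -0.16, exact binomial FDR 1.67e-11) was under the threshold of size and not called.

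**Figure D2:**
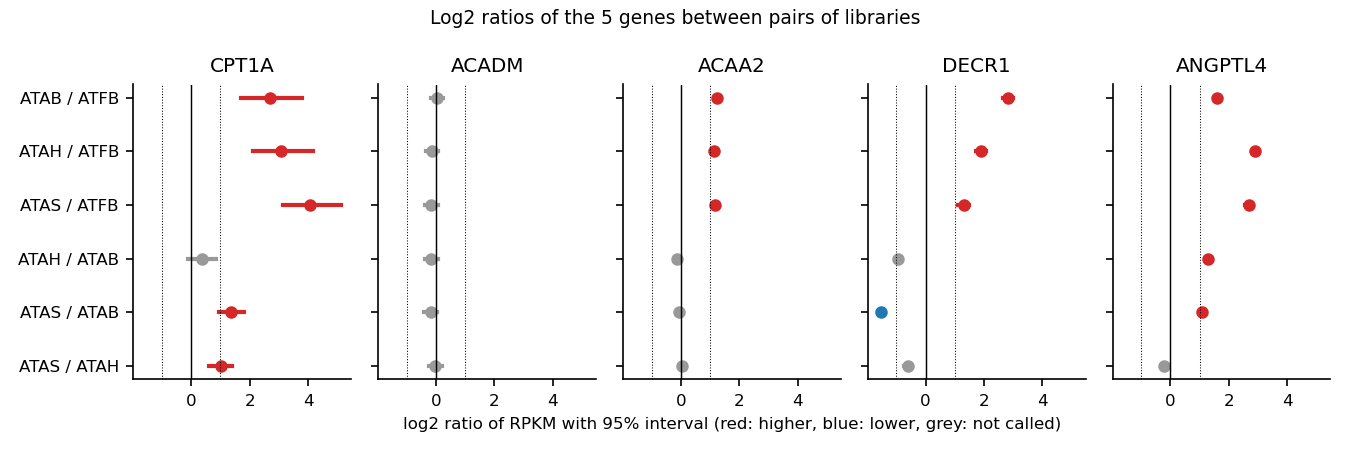
Log2 ratio of RPKM (horizontal axis) of each gene in the 6 comparisons of libraries, with 95% Clopper-Pearson intervals; dotted lines mark the ratio threshold of 1 in both directions. Red points were called higher, the blue point lower and grey points not called: CPT1A and ANGPTL4 have 5 red points each, DECR1 has 3 red and 1 blue, ACAA2 has 3 red and ACADM has none.

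Taken by library, the order of levels per length shifted. In ATFB the order from low to high was CPT1A, ACADM, DECR1, ANGPTL4 and ACAA2, and the highest was 29.6-fold above the lowest. In each adult library ACADM had the lowest value of the 5, with ACAA2 the highest in ATAB and ATAS and ANGPTL4 in ATAH. The counting intervals of ACADM and CPT1A in ATAB overlapped (9.95 to 12.2 and 9.79 to 15.98 RPKM), as did those of ACAA2 and ANGPTL4 in ATAS (127.1 to 136 and 127 to 135 RPKM). The places of ACADM and ACAA2 in these orders carry the uncertainty of their levels per length given above. The summed level of the 4 enzymes was 83.8 RPKM in the fetal library, 253 in the bull, 201 in the heifer and 206 in the steer library, of which ACAA2 held the largest share in every library. Among all clusters with reads, ACAA2 ranked at percentile 95.02 in ATFB and 98.3 to 98.4 in the adult libraries, and ANGPTL4 moved from percentile 85.5 in ATFB to 98.6 in ATAH. CPT1A moved from percentile 44.8 in ATFB to 91.0 in ATAS.

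To set the 3 adult libraries together against ATFB, edgeR's quasi-likelihood test was fitted over 25584 clusters, whose spread comes only from the unlike adult libraries, and 18.2% of clusters were called at an FDR of 0.05 (9.83% higher in the adult libraries). By this test 2 of the 5 genes were called. CPT1A had a log2 fold change of 3.31 (edgeR FDR 0.0251) and ANGPTL4 one of 2.44 (edgeR FDR 0.0251). ACAA2 at 1.17 (edgeR FDR 0.0578) and DECR1 at 2.19 (edgeR FDR 0.0868), both higher in 3 of 3 adult libraries, did not pass, nor did ACADM at -0.11 (edgeR FDR 0.819). Without ATAB both ACAA2 and DECR1 passed, at smaller log2 fold changes of 1.01 and 1.498. Without ATAS, DECR1 passed at a log2 fold change of 2.52 and ACAA2, at 1.23, did not. Without ATAH neither passed, at log2 fold changes of 1.25 for ACAA2 and 2.36 for DECR1. With all 4 libraries, both passed by edgeR's likelihood ratio test (FDR 0.0310 and 0.0244) and by the DESeq2 Wald test (FDR 0.0102 and 0.00746). Neither passed by the quasi-likelihood test with DESeq2 size factors, with library totals, with ACTB scaling or without the low-count filter.

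For the gene lists that follow, the same counts over all 36373 clusters serve as the background. Of these clusters, 6.85% were called higher in all 3 adult libraries than in ATFB, 18.0% higher in at least 1, 6.19% lower in all 3, and 66.1% were called in none. Over the 18671 clusters with at least 100 reads, these shares were 12.8%, 29.0%, 9.49% and 48.0%. Between adult libraries, 11.7% of clusters were called in at least 1 comparison, and 18.5% of those with at least 100 reads.

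The genes that act beside CPT1A in fatty acid activation and the carnitine shuttle were given by a list of 16, 14 of them with a named cluster. Of the 13 other than CPT1A, 6 were called higher in each of the 3 adult libraries than in ATFB, 1 was called lower in 1 of them and 6 were not called, against the 6.85% of all clusters higher in all 3 and the 66.1% called in none. Their median log2 ratio was 0.71 in the bull, 1.03 in the heifer and 0.89 in the steer library, where the median over all clusters with at least 10 reads was -0.17, 0.11 and 0.13. CPT1B, the muscle form of the same step, was at 0.873 RPKM in ATFB and 2.54, 4.24 and 5.06 in ATAB, ATAH and ATAS, so that per length it stood below CPT1A in every library. In ATFB that order rests on 10 reads of CPT1A (0.940 to 3.60 RPKM). CPT1A was also counted on a fragment of 334 bases, and CPT1B on 2998 bases. CPT2, which remakes the coenzyme A ester inside the mitochondrion, went from 10.02 RPKM in ATFB to 34.4, 26.3 and 27.7. CRAT, the carnitine acetyltransferase, went from 13.1 to 80.7, 69.7 and 58.3 RPKM, and ACSL1, the long-chain acyl-CoA synthetase of fat cells, from 41.7 to 163, 187 and 96.2 RPKM. All 4 were called higher in each adult library. When scaled to ACTB the call of ACSL1 in ATAS was lost (log2 ratio 0.95), and 5 of the 13 genes were higher in all 3. SLC25A20, the carrier that exchanges acylcarnitine for carnitine across the inner membrane, was not called at 37.0 RPKM in ATFB and 43.9, 45.7 and 32.6 in the adults. ACSL3 was lower in ATAS, at 10.4 RPKM against 25.4 in ATFB, and ACSL5 was not called, with 38.7 RPKM in ATFB and 28.6 to 44.1 in the adults. No gene of this list other than CPT1A was called between adult libraries with library totals, and with TMM factors ACSL1 was, lower in ATAS than in ATAB (log2 ratio -1.06).

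**Figure D3:**
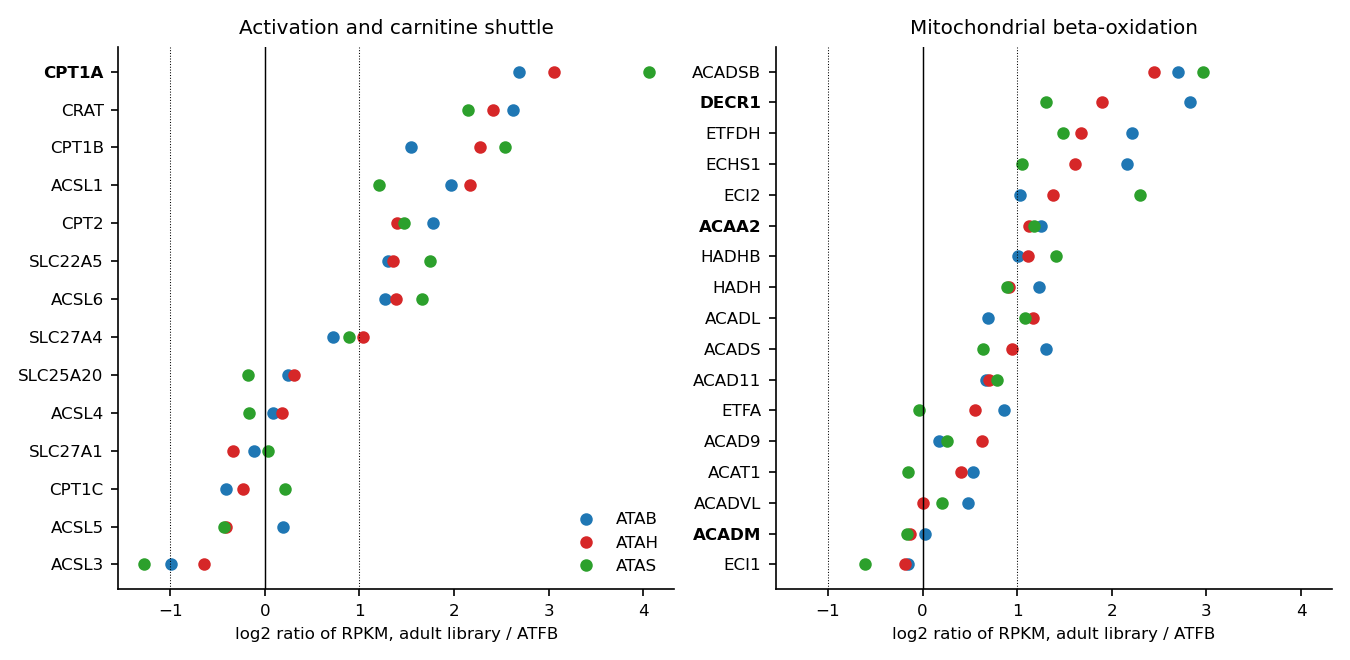
Log2 ratio of RPKM of each adult library to ATFB (horizontal axis) for the named genes of the shuttle list (14 genes, left) and the mitochondrial beta-oxidation list (17 genes, right), ordered by their mean, with CPT1A, ACADM, ACAA2 and DECR1 in bold; dotted lines mark the ratio threshold of 1. CPT1A has the highest mean of its list at 3.27, DECR1 the second highest of its list at 2.01, and ACADM the second lowest at -0.09.

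The mitochondrial beta-oxidation list held 20 genes and a named cluster was found for 17. Of the 14 other than ACADM, ACAA2 and DECR1, 5 were called higher in all 3 adult libraries, 8 in at least 1, none lower, and 6 were not called, where 6.85% of all clusters were higher in all 3 and 18.0% in at least 1. The 5 became 4 with TMM factors, 3 with DESeq2 size factors and 2 when scaled to ACTB. The 14 had a median log2 ratio of 0.94 in the bull, 0.93 in the heifer and 0.84 in the steer library. The acyl-CoA dehydrogenases, of which ACADM serves medium chains, were not alike. ACADVL, for very long chains, was not called, at 60.3 RPKM in ATFB and 84.5, 60.5 and 69.4 in ATAB, ATAH and ATAS. ACADL, for long chains, was at 9.78, 15.8, 21.9 and 20.7 RPKM and was called higher in ATAH and ATAS only, a call lost in ATAS with TMM factors (log2 ratio 0.96). When scaled to ACTB both calls of ACADL were lost, at 0.89 in ATAH and 0.83 in ATAS. ACADSB, for short branched chains, was at 10.2, 66.1, 55.7 and 79.4 RPKM, called higher in each adult library and by the stage fit (log2 fold change 2.69, edgeR FDR 0.0117). HADHB, the thiolase subunit of the trifunctional protein and so the long-chain counterpart of ACAA2, was at 49.95, 101, 108 and 132 RPKM and was called higher in each adult library, though not when scaled to ACTB in ATAB (log2 ratio 0.77) and ATAH (0.84). Among the other auxiliary enzymes, ECI1, which shifts double bonds, was not called, at 39.0, 35.05, 34.3 and 25.5 RPKM. ETFA, a subunit of the flavoprotein that takes electrons from the dehydrogenases, was not called either with library totals, at 43.2, 78.7, 63.3 and 42.1 RPKM. In ATAB, ETFA was called higher with TMM factors (log2 ratio 1.04) and with DESeq2 size factors. Between adult libraries, 2 of the 14 were called, both between ATAB and ATAS and in opposite directions. ECHS1, the enoyl-CoA hydratase, was lower in ATAS, at 281 RPKM against 607 in ATAB, and ECI2 was higher, at 73.1 RPKM against 30.4. These are named here because they were the only 2, after their values were seen. With TMM factors the call of ECI2 was lost (0.97), and ETFA (-1.20) and ETFDH (-1.03), the latter passing on the electrons, were called lower in ATAS than in ATAB.

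Of 15 listed genes that mark mitochondrial content, 8 had a named cluster. Of these, 1 was called higher in an adult library, and 18.0% of all clusters were. It was CS, the citrate synthase, called in ATAB at 27.3 RPKM against 12.5 in ATFB. SDHA was at 174 RPKM in ATFB and 221 to 301 in the adults, VDAC2 at 186 and 98.0 to 158, and HSPD1 at 57.3 and 40.1 to 43.4, with no call. The median log2 ratio to ATFB of the 8 was 0.48 in the bull, 0.34 in the heifer and 0.00 in the steer library, and none of them was called between adult libraries. The call of CS was lost when scaled to ACTB (0.89), and VDAC2 was called lower in ATAS than in ATFB with TMM factors (-1.04), DESeq2 size factors (-1.08) and ACTB (-1.18). With TMM factors 1 of the 8, UQCRC2, was called between adult libraries, lower in ATAS than in ATAB (-1.06).

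Peroxisomes hold a separate oxidation of very long and branched chains. Of the 15 named genes of that list, which had 17, 8 were called higher in all 3 adult libraries and none lower, and none was called between adult libraries. The shares of all clusters were 6.85% for higher in all 3 and 11.7% for a call between adult libraries. When scaled to ACTB the 8 became 6. The median log2 ratio of the 15 genes to ATFB was 1.10 in the bull, 1.28 in the heifer and 1.41 in the steer library. ABCD2, a peroxisomal fatty acyl-CoA transporter, had 2 reads in ATFB and 72, 66 and 57 in ATAB, ATAH and ATAS. EHHADH, the bifunctional enzyme, went from 1.65 RPKM to 16.8, 17.6 and 13.3. DECR2, the peroxisomal counterpart of DECR1, was not called, at 18.3 RPKM in ATFB and 12.5, 14.0 and 10.99 in the adults, nor was ACOT8, a thioesterase, at 9.80 and 6.76, 8.77 and 8.84 RPKM.

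Of 7 genes of ketone body metabolism, 6 had a named cluster, and over the 5 with at least 10 reads the median log2 ratio was 1.62 in the bull, 1.26 in the heifer and 1.01 in the steer library. OXCT1, which starts their use, was called higher in each adult library, at 13.5 RPKM in ATFB and 62.0, 56.2 and 59.9 in ATAB, ATAH and ATAS, as was the monocarboxylate carrier SLC16A1, at 16.7 and 66.2, 68.2 and 37.4 RPKM, though not in ATAS when scaled to ACTB (log2 ratio 0.91). ACAT1, a thiolase on both lists, was not called, at 111 RPKM in ATFB and 99.3 to 160 in the adults. BDH1, the 3-hydroxybutyrate dehydrogenase, was at 17.02 RPKM in the fetal library, 52.4 in the bull, 12.1 in the heifer and 3.04 in the steer library, and all 3 steps between adult libraries were called. It shared with DECR1 the order ATAB, ATAH, ATAS from high to low.

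Among genes that control oxidation, 18 of 24 had a named cluster, 7 of which were called higher in all 3 adult libraries (6.85% of all clusters; 4 of the 18 genes when scaled to ACTB) and none lower, with a median log2 ratio of 0.78, 0.90 and 0.97 in the bull, heifer and steer libraries. PDK4, the kinase that turns off pyruvate dehydrogenase, was at 46.2 RPKM in the fetal library, 238 in the bull, 477 in the heifer and 765 in the steer library. LPIN1, a phosphatidate phosphatase and coactivator, was at 7.55, 33.7, 118 and 291 RPKM. Both had the order of CPT1A, lowest in ATFB and highest in ATAS, and LPIN1 was called in all 3 steps between adult libraries. PDK4 was called higher in ATAS than in ATAB (log2 ratio 1.69), and its step from ATAB to ATAH sat at the threshold (1.004) and was lost with TMM factors (0.73), DESeq2 size factors (0.72) and ACTB (0.97). Of the PPAR receptors, PPARD was called higher in each adult library, at 6.45 RPKM in ATFB and 19.1, 26.4 and 20.4, and PPARA was not with library totals, at 4.33 and 8.01, 6.42 and 8.15 RPKM. In ATAB, PPARA was called higher with TMM factors (log2 ratio 1.06) and with DESeq2 size factors. The coactivator PPARGC1A was at 1.41 RPKM in ATFB and 1.07, 1.34 and 2.26 in ATAB, ATAH and ATAS, and its call between ATAB and ATAS was lost with TMM factors (0.79). ACACB, the carboxylase that makes the malonyl-CoA inhibiting CPT1, had 16 to 27 reads a library and was not called. PRKAA1, a catalytic subunit of AMP-activated kinase, and NRF1, a transcription factor of nuclear genes for mitochondrial proteins, were not called, at 8.58 and 4.22 RPKM in ATFB, 4.72 to 7.60 and 2.64 to 4.31 RPKM in the adults, except that PRKAA1 was called lower in ATAB when scaled to ACTB (-1.10).

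ANGPTL4 acts on lipoprotein lipase, and the list of that enzyme, its partners and the angiopoietin-like family held 19 genes, 13 of them with a named cluster. LPL itself was at 180 RPKM in the fetal library, 566 in the bull, 507 in the heifer and 304 in the steer library, called higher in ATAB and ATAH, and with TMM factors called lower in ATAS than in ATAB (log2 ratio -1.19). The ratio of ANGPTL4 to LPL in RPKM was 0.113 in the fetal library, 0.110 in the bull, 0.301 in the heifer and 0.430 in the steer library, the fetal and bull values lying close together and the heifer and steer values above them. CD36, the fatty acid transporter, was at 181 RPKM in ATFB and 926, 1097 and 1111 in ATAB, ATAH and ATAS, called higher in each. Other angiopoietin-like genes went the other way. ANGPTL6 had 186 reads in ATFB and 4, 5 and 12 in ATAB, ATAH and ATAS, and ANGPTL7 had 188 and 1, 9 and 85, both called lower in each adult library. Of the 12 genes other than ANGPTL4, 2 were called higher in all 3 adult libraries, 2 lower in all 3, and 4 in none, where the shares of all clusters were 6.85%, 6.19% and 66.1%. Over the 11 of these with at least 10 reads, the median log2 ratio was 0.35 in the bull, -0.80 in the heifer and 0.19 in the steer library.

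For each of the 5 genes, the named clusters with the nearest profile were found by the root mean square distance of log2 RPKM, centred on its mean over the 4 libraries, among 3601 named clusters with at least 100 reads. This describes the shape over 4 points, which share the same 4 libraries, and carries no test. CPT1A was nearest to DNASE1L3 (distance 0.114), APBA1 (0.135) and SOCS7 (0.138), and 19 clusters lay within 0.25. ACADM, with its flat profile, had 547 clusters within 0.25, the nearest being MPST (0.0109), NTSR2 (0.0251) and CPPED1 (0.0270). ACAA2 was nearest to COL4A2 (0.0236), GEN1 (0.0331) and COL4A1 (0.0388), of 293 within 0.25. The collagen IV genes COL4A1 and COL4A2 encode chains of basement membrane. DECR1 had 3 clusters within 0.25, C10orf65 (0.159), PFKFB4 (0.205) and ECHS1 (0.239). ANGPTL4 was nearest to C2H2orf69 (0.0431) and PHACTR1 (0.108), of 44 within 0.25. Among the 5 genes themselves the closest pair was ACADM and ACAA2 at 0.555, and CPT1A and ANGPTL4 stood at 0.586.

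In pooled tissue, fewer cells of a type and less RNA per cell cannot be told apart, and levels of cell type markers in the fetal library differed from those in the adults. The 10 named adipocyte markers of 12 summed to 1145 RPKM in ATFB and 7443 to 8442 in the adult libraries, and each was called higher in at least 1 of them. The 7 fibroblast and preadipocyte markers summed to 11071 RPKM in ATFB and 2361 to 7804 in the adults, with the preadipocyte marker DLK1 at 566 RPKM in ATFB and without a read in ATAB. These 7 were not alike: 2 were called lower in ATAB, 5 in ATAH and 5 in ATAS, while PDGFRB was called higher in ATAH (log2 ratio 1.12) and ATAS (1.59), the former lost with DESeq2 size factors (0.98), and COL3A1 had a ratio of 0.55 in ATAB, not called. The 2 named red cell markers summed to 2390 RPKM in ATFB and to at most 1.54 in the adults, with both at 0 reads in ATAS. The 5 endothelial markers summed to 437 RPKM in ATFB and 357 to 662 in the adults, but VWF among them was called higher in each adult library (log2 ratios 2.10, 2.67 and 3.03), CDH5 in ATAH and ATAS, and CLDN5 lower in ATAB (-1.34). The 4 macrophage markers summed to 120 and 189 to 290 RPKM, with CSF1R called higher in each adult library (1.92, 1.99 and 2.62), CD68 in ATAB and ATAS, and no call for CD163 and CD14. In ATAB the call of CD68 was lost when scaled to ACTB (0.77), and CD163 was called higher with TMM factors (1.008). The 4 named thermogenic markers of 9 summed to 43.5 RPKM in ATFB and 12.8 to 20.1 in the adults, with DIO2 at 0 reads in 3 libraries. COX8B was the 1 of the 4 called against ATFB, lower at log2 ratios of -1.63, -2.24 and -4.39 in ATAB, ATAH and ATAS. PPARGC1A, at -0.40, -0.07 and 0.68, and EBF2, at 0.18, -0.19 and 0.41, were not called against ATFB. The 6 muscle markers summed to 1.77 to 5.25 RPKM over the 4 libraries. Against ATFB, 3 of them were called lower in ATAB and 1 in ATAS, and none higher. The ATAB calls of ACTA1 and TTN were lost with TMM factors (-0.98 and -0.83). The part of cell make-up in the differences of the 5 genes was not tested.

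Set against single adipocyte markers in the same library, the 5 genes separated. These ratios carry no interval, and those of CPT1A in ATFB rest on 10 reads (0.940 to 3.60 RPKM). Divided by ADIPOQ, an adipokine, CPT1A went from 0.00751 in ATFB to 0.0128, 0.0142 and 0.0218 in ATAB, ATAH and ATAS, while ACADM went from 0.0415 to 0.0112, 0.00858 and 0.00644 and ACAA2 from 0.222 to 0.140, 0.110 and 0.0878. Divided by PLIN1, the coat protein of the lipid droplet, CPT1A stood at 0.0270 in ATFB and 0.0242, 0.0196 and 0.0326 in the adults, and ANGPTL4 at 0.279 and 0.120, 0.183 and 0.130. For DECR1 over PLIN1 the bull library matched the fetal one, 0.177 against 0.178, and the heifer and steer libraries were lower at 0.0580 and 0.0318. Divided by LIPE, the hormone-sensitive lipase, all 5 genes had a higher ratio in ATFB than in each adult library. Divided by LPL, CPT1A went from 0.0109 in ATFB to 0.0223, 0.0322 and 0.108 in the adults and DECR1 from 0.0720 to 0.162, 0.0953 and 0.105, both higher in each, while ACADM went from 0.0602 to 0.0194, 0.0195 and 0.0317. ACAA2 over LPL was 0.322 in ATFB, lower in ATAB and ATAH at 0.243 and 0.249 and higher in ATAS at 0.432, and the LPL ratios of ANGPTL4 are those given above. For CPT1A and DECR1 in each adult library, and for ANGPTL4 in ATAH and ATAS, the direction against ATFB differed with the marker used. ANGPTL4 in ATAB was below ATFB over ADIPOQ (0.0634 against 0.0778), PLIN1 and LIPE, and close to it over LPL (0.110 against 0.113). ACAA2 in ATAB and ATAH and ACADM in each adult library were below ATFB over all 4 markers. ACAA2 in ATAS was above ATFB over LPL and below it over the other 3.

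**Figure D4:**
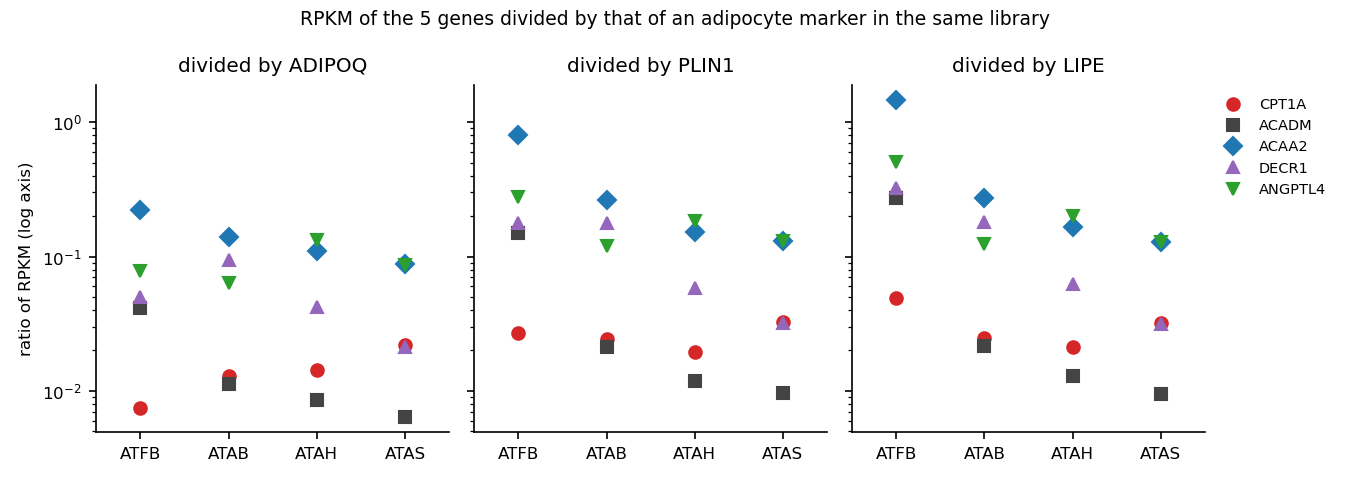
RPKM of the 5 genes divided by that of ADIPOQ, PLIN1 or LIPE in the same library (vertical axis, log scale) in ATFB, ATAB, ATAH and ATAS. Over ADIPOQ, CPT1A is higher in the 3 adult libraries, with 10 reads in ATFB, and ACADM and ACAA2 are lower. Over LIPE all 5 genes are highest in ATFB. The ratios carry no interval.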

How the data were processed

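The authors pooled subcutaneous fat of 5 animals per group, sequenced poly(A) RNA on an Illumina platform and, per the methods, removed adaptor, redundant and low-quality reads. The rest were aligned to a masked cattle reference genome with SOAPaligner, first without mismatches and then with fewer than 3. They deposited counts of reads that matched once per UniGene cluster, RPKM computed from these counts, and the share of the sequence under reads as a percent. The UniGene release and the counting of reads against it are not given in the sources used here, and the submitters' processing notes name CASAVA. Counted reads numbered 15274529 (ATFB), 16148487 (ATAB), 15590706 (ATAH) and 15557063 (ATAS). The deposited percent coverage had a median of 69.2% to 72.1% over clusters with reads.

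The counts name no genes. Symbols came from accessions matched to RefSeq (3490 clusters), a symbol in the sequence header (1511) or a full name (76), and 90 of the 117 genes of the 7 gene lists had a named cluster. Genes without one, such as HADHA, GPIHBP1 and UCP1, were not analysed here. Where several clusters named a gene, the one with the most reads was taken. Clusters carry no chromosome position, and none is given. Pairs of libraries were compared with an exact binomial test, two-sided, on the library totals (scipy 1.17.1), and the stages by the edgeR 4.0.16 quasi-likelihood test with filterByExpr and TMM factors (R 4.3.3). Both were run on simulated counts. Those for the binomial test had no variation between pools beyond counting, so they cannot show how it behaves on these pools. A count of 0 was set to 3 reads for medians and calls. Intervals cover only counting error: without molecular identifiers, reads can be copies of 1 molecule. Besides the 5 genes, the text names, per list, the 2 genes with the highest and the 2 with the lowest mean log2 ratio of the adult libraries to ATFB among those with at least 100 reads, a set of key pathway genes, and the 3 nearest profiles of each of the 5 genes. Of the genes so chosen, 2 are not reported here. Alternatives were other scalings, filters, tests, added clusters and left-out libraries. The genes and lists were chosen with earlier results of these data known.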

Additional observations from a re-analysis of the deposited data

How the results depend on the processing

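An edgeR exact test with an assumed coefficient of variation of 0.4 ended every call of the 5 genes between libraries. It called 0 of them in all 6 comparisons, and of all clusters it called 184 for ATFB to ATAB, 229 for ATFB to ATAH, 278 for ATFB to ATAS, 13 for ATAB to ATAH, 5 for ATAB to ATAS and 12 for ATAH to ATAS, against 7808, 8320, 9076, 1890, 2995 and 1048. With edgeR TMM or DESeq2 factors, 2 of the 5 genes were called between ATAB and ATAH and 0 between ATAH and ATAS. ACADM reversed between ATFB and ATAB with ACTB as the scaling gene (-0.21, not called). Scaling moved the balance of all calls: those higher in the second library made up 42.0% for ATFB to ATAB, 77.5% for ATAB to ATAH and 78.8% for ATAB to ATAS with library totals, and 53.2%, 48.9% and 49.4% with TMM factors. With ACTB they were 29.2% for ATFB to ATAB, 42.3% against 58.2% for ATFB to ATAH and 45.7% against 59.1% for ATFB to ATAS. With library totals the median log2 ratio over clusters was 0.29 for ATAB to ATAH and 0.33 for ATAB to ATAS, and with TMM factors 0.01 and 0.04. In the stage fit, the likelihood ratio test called 7408 clusters and 4 of the 5 genes, and the DESeq2 Wald test 4 of the 5 genes, against 4661 and 2. Leaving out each adult library in turn gave 2321 to 7123 clusters, the lowest without ATAH and the highest without ATAB, and 2 to 4 of the 5 genes. CPT1A and ANGPTL4 passed in all of these stage fits. Of 230 values of the 5 genes under the alternatives, 196 kept their direction and side of the threshold. No paired analysis was possible because each group had 1 library. Depth limits CPT1A most, with 10 reads in ATFB.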
